A study of Mus musculus with 16 samples.

Results

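Semaphorins, plexins and neuropilins form one family of guidance ligands and receptors, and the genes described here are its members on the array. They were chosen by name: every probe set whose only gene symbol was that of a class 3 to 7 semaphorin, a plexin or a neuropilin, with the probe set of the highest mean taken for each gene. This gave 31 genes of the 19938 with a symbol, namely 20 semaphorins, 9 plexins and 2 neuropilins, and all 31 names of this pattern in the reference gene table were found. All 31 had a log2 signal above 5 in all 16 samples. The samples were microdissected from wild-type C57Bl6 mouse embryos at E14.5, which the study gives as the cap stage of the tooth germs. No treatment or further allele is named for any group. There were 4 lower incisor, 8 mandibular first molar and 4 maxillary first molar samples, each the RNA of a pool of 4 tooth germs on 1 Affymetrix Mouse Gene 1.0 ST array, and the values below are log2 signals after RMA. The study asked which genes set incisors apart from molars, and mandibular apart from maxillary molars.

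Semaphorins bind plexins and steer growing axons, vessel tips and migrating cells, most often by repelling them. The class 3 members are secreted and mostly need a neuropilin, *Nrp1* or *Nrp2*, that holds the ligand while a class A plexin or *Plxnd1* carries the signal inward. The other classes are bound to the membrane and bind plexins directly, and within the cell plexins act through small GTPases, kinases and collapsin response mediators on actin and microtubules. In tooth germs *Sema3a* is known as the repellent of the dental mesenchyme that keeps trigeminal axons out of the young germ. In bulk samples such as these, fewer cells of a type and less RNA per cell cannot be told apart.

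Markers of the labelled tissue were measured in every sample. The mean log2 signal of 12 dental mesenchyme markers was 9.48 to 9.73 in the lower incisors, 9.81 to 10.24 in the mandibular molars and 10.23 to 10.35 in the maxillary molars. That of 10 dental epithelium markers was 9.16 to 9.34, 8.89 to 9.73 and 9.44 to 9.67. The mesenchyme list holds *Lhx6*, *Lhx8* and *Dlx1*, which the study reported as higher in mandibular molars than in incisors. The study also reported *Lhx8* and *Dlx1* as higher in maxillary than in mandibular molars. The mean of this list is thus not a measure of the amount of mesenchyme alone. Genes of neighbouring tissue were also measured. In the incisors 12 cartilage markers averaged 7.60 to 8.71, highest in incisors 1 and 4, against 7.24 to 7.48 in mandibular molars. The mean of 12 skeletal muscle markers was 8.71 to 8.82 in incisors, 7.55 to 9.01 in mandibular molars, highest in sample 2, and 6.66 to 7.13 in maxillary molars. By their values the samples also fell into a pair of sets with no name in the labels. Mandibular molars 5 to 8 correlated across probe sets at a median of 0.9942 with maxillary molars and 0.9898 with mandibular molars 1 to 4, and lower incisors at 0.9902 with mandibular molars 1 to 4 and 0.9861 with 5 to 8. Below, the first sample set stands for the incisors and mandibular molars 1 to 4, and the second for mandibular molars 5 to 8 and the maxillary molars.

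RefSeq (GRCm38.p6) listed 37 promoters for 26 of the genes, of which the stretches before the annotated gene are shown for 3 genes that differed between incisors and molars. They are the ones with at least 200 bases there, and they show how unlike the starts of the family are. The window of *Plxna2* was chr1:194619579-194619790, that of *Sema3c* chr5:17574566-17574815 and that of *Sema6d* chr2:124089719-124089942, all on the plus strand. Capitals mark the GC box, searched as GGGCGG on both strands.
Plxna2: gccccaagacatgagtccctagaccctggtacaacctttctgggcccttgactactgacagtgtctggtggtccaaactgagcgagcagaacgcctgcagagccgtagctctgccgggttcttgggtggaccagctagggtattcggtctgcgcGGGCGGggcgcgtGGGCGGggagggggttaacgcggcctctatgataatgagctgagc
Sema3c: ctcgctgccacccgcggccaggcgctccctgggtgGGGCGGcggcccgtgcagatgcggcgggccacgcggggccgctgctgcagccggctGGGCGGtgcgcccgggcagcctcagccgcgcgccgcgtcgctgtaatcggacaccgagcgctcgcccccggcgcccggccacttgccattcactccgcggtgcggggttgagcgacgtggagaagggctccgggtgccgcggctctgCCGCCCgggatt
Sema6d: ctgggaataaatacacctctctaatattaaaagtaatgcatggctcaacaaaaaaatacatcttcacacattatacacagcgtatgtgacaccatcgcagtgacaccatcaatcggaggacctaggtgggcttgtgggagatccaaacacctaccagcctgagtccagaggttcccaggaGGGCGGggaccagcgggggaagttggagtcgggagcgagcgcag
The stretch of *Sema3c* was 78.4% G and C with 3 GC boxes, that of *Plxna2* 61.8% with 2 and that of *Sema6d* 50.9% with 1. Over the 250 bases before each start, the family's promoters ran from 40.8% G and C for *Sema3a* to 78.4% for *Sema3c*, against a median of 52.4% over all 32851 promoters. A GC box stood in 27 of the family's 37 promoters and in 32.7% of all promoters. A CCAAT box (CCAAT) stood in 7 of 37 against 33.8%, and a TATA box (TATAAA) in 0 of 37 against 12.4%. The E-box (CANNTG) was found in 19 of 37 against 66.2%, the homeodomain site TAATTA in 0 of 37 against 4.84%, and the AP-2 site GCCNNNGGC in 8 of 37 against 13.7%. These matches, on either strand, describe letters in the window and are not shown to be sites.

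The lower incisors held more *Nrp1*, *Sema3c*, *Sema4g* and *Plxna2*, and the mandibular molars more *Sema7a*, *Sema3a*, *Sema6d* and *Plxnc1*. The rule for a call was an adjusted p under 0.1 and more than 1.2-fold, by limma over 29258 probe sets, those that passed a log2 signal of 5 in 1 or more of the samples compared. Positive log2 fold changes are those in favour of the mandibular molars. Of the 31 genes 4 were called higher in mandibular molars and 4 in lower incisors, where 2.75% and 2.18% of all probe sets were called. With 1 probe set per gene these shares were 3.91% and 3.09%. In all 25.8% of the genes were called against 4.93% of probe sets. The median change was -0.01 against -0.02 over all probe sets, with 14 genes above and 17 below 0, and the median absolute change was 0.18 against 0.11. The family as a whole was not shifted one way, and its called members differed in opposite directions. Samples did not overlap between the groups for 3 genes higher in molars and 4 higher in incisors, against 1.92% and 1.77% of all probe sets. At an unadjusted p under 0.05 there were 10 genes higher in molars and 6 in incisors, against 9.51% and 8.86% of all probe sets.

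**Figure D1:**
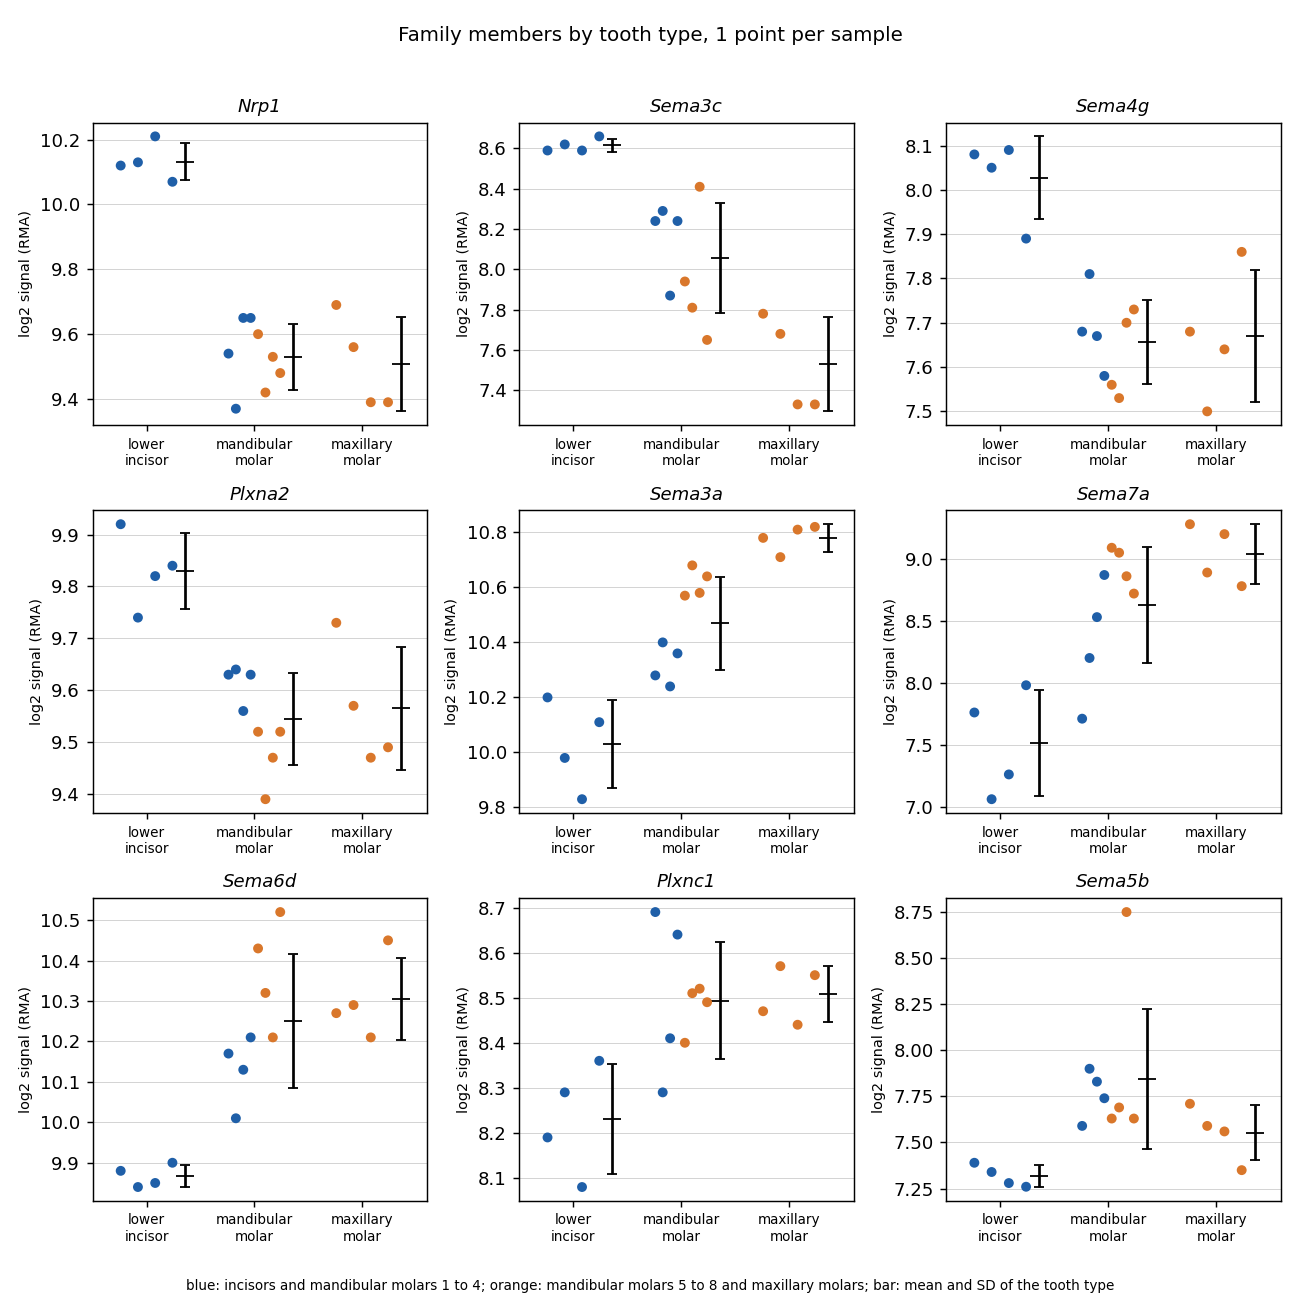
Log2 signal (RMA, vertical axis) of 9 genes by tooth type, 1 point per sample, with mean and SD of each tooth type as a bar. Blue points are incisors and mandibular molars 1 to 4, and orange points are mandibular molars 5 to 8 and maxillary molars. All 4 incisors lie above all molars for *Nrp1*, *Sema3c*, *Sema4g* and *Plxna2*, while *Sema7a* and *Plxnc1* overlap between incisors and mandibular molars.

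Among the secreted ligands, *Sema3a* and *Sema3c* differed in opposite directions. *Sema3a* was at 10.20, 9.98, 9.83 and 10.11 in lower incisors 1 to 4, at 10.24 to 10.68 with a median of 10.48 in mandibular molars, and at 10.78, 10.71, 10.81 and 10.82 in maxillary molars. No incisor reached the lowest mandibular molar, which lay 0.04 above the highest incisor. This was a log2 fold change of 0.44 (standard error 0.10, fold 1.36, limma adjusted p = 0.0289). *Sema3c*, which guides neural crest cells and vessels, was at 8.59, 8.62, 8.59 and 8.66 in incisors and at 7.65 to 8.41 with a median of 8.09 in mandibular molars. The incisors were tightly grouped (SD 0.03, n = 4) and lay above every molar, and the mandibular molars were spread wider (SD 0.27, n = 8). Its log2 fold change was -0.56 (standard error 0.13, fold 1.47, limma adjusted p = 0.035). Within the first sample set *Sema3c* was still called, at -0.45 with an adjusted p of 0.083 by limma. There *Sema3a* was at 0.29 and was not called (limma adjusted p = 0.289), and it also lost its call over all samples without incisor 3 (adjusted p = 0.116). Of 12 dental mesenchyme markers, a list that holds such molar genes as *Lhx6*, 5 were called higher in mandibular molars and 0 in incisors. Of 10 dental epithelium markers 3 and 0 were, and the part of both tissues in these differences was not tested. The other class 3 genes, *Sema3b*, *Sema3d*, *Sema3e*, *Sema3f* and *Sema3g*, had log2 fold changes of -0.08 to 0.06 and none was called.

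The receptor with the largest difference from incisors was *Nrp1*, the co-receptor for both *Sema3a* and *Sema3c* and also a receptor for VEGF. It was at 10.12, 10.13, 10.21 and 10.07 in lower incisors, at 9.37 to 9.65 with a median of 9.53 in mandibular molars, and at 9.69, 9.56, 9.39 and 9.39 in maxillary molars. The lowest incisor lay 0.416 above the highest mandibular molar. Mandibular molars were thus lower by a log2 fold change of -0.60 (standard error 0.06, fold 1.52, limma adjusted p = 0.000142). Leaving out any 1 sample kept it between -0.62 and -0.58, and the first sample set alone gave -0.58 with a limma adjusted p of 0.0136. *Nrp2*, the neuropilin of *Sema3f*, was not called. It was at 9.96 to 10.18 in incisors and 9.93 to 10.20 in mandibular molars, a log2 fold change of -0.01 with a 95% interval of -0.16 to 0.14. *Nrp1* is also made by endothelium, whose 12 markers had a mean log2 signal of 8.90 to 9.12 in incisors and 8.85 to 9.04 in mandibular molars, with 1 called higher in incisors. Cartilage markers were called higher in incisors for 9 of 12, muscle markers for 4 of 12 and keratinizing epithelium markers for 5 of 11. Schwann cell and glia markers were called higher in incisors for 2 of 7, neuron and axon markers for 2 of 12 with 1 higher in molars, and macrophage markers were called higher in molars for 2 of 12. Of 5 osteoblast markers 1 was called in each direction. With only incisors 2 and 3, those lowest in cartilage markers, *Nrp1* was at -0.64 (limma adjusted p = 0.00439). Their cartilage means, 7.60 and 7.81, still lay above those of all mandibular molars, at most 7.48. So did their keratinizing epithelium means, 7.35 and 7.42 against at most 7.08. This fit could thus not separate these tissues, and their part in the level of *Nrp1* was not tested.

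Of the class A plexins, which pair with neuropilins or bind class 6 semaphorins directly, *Plxna2* alone was called. It was at 9.92, 9.74, 9.82 and 9.84 in incisors and at 9.39 to 9.64 with a median of 9.54 in mandibular molars, with no overlap. The log2 fold change was -0.29 (standard error 0.06, fold 1.22, limma adjusted p = 0.0189). It stood close to the fold threshold. Without incisor 1 it was at -0.26, under fold 1.2, and within the first sample set at -0.22 with an adjusted p of 0.233. *Plxna1*, *Plxna3* and *Plxna4* had log2 fold changes of -0.01, 0.08 and -0.14 and were not called, nor was *Plxnd1*, the receptor of *Sema3e*, at -0.06.

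Among the membrane-bound ligands *Sema7a* had the largest difference of the family, and *Sema4g* the smallest adjusted p. *Sema7a*, a lipid-anchored semaphorin that signals through integrins and *Plxnc1*, was at 7.76, 7.06, 7.26 and 7.98 in incisors. In mandibular molars it was at 7.71 to 9.09 with a median of 8.79, and in maxillary molars at 9.28, 8.89, 9.20 and 8.78. Mandibular molar 1, at 7.71, lay below incisors 1 and 4, so the groups overlapped. On average molars were higher, with a log2 fold change of 1.11 (standard error 0.25, fold 2.16, limma adjusted p = 0.0297), and *Sema7a* was the only member called above fold 2, in either direction, where 0.284% of all probe sets passed that threshold in the direction of the molars. It lost its call without incisor 2 (adjusted p = 0.111) or incisor 3 (0.113), and was at 0.81 within the first sample set (limma adjusted p = 0.364). Its receptor *Plxnc1* was at 8.19, 8.29, 8.08 and 8.36 in incisors and at 8.29 to 8.69 with a median of 8.50 in mandibular molars. It overlapped between the groups and only just passed, with a log2 fold change of 0.26 (standard error 0.08, just above the fold threshold, limma adjusted p = 0.0983). The call was kept in 3 of the 12 fits that left out 1 sample, and was lost within the first sample set (limma adjusted p = 0.463) and with the methods' t-test (0.116).

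*Sema4g*, a class 4 member that binds *Plxnb2*, was at 8.08, 8.05, 8.09 and 7.89 in incisors and at 7.53 to 7.81 with a median of 7.67 in mandibular molars. The groups did not overlap, and the log2 fold change was -0.37 (standard error 0.06, fold 1.29, limma adjusted p = 0.00568). It was also called within the first sample set, at -0.34 (adjusted p = 0.0924). *Sema6d*, a ligand of *Plxna1*, was at 9.88, 9.84, 9.85 and 9.90 in incisors, at 10.01 to 10.52 with a median of 10.21 in mandibular molars, and at 10.27, 10.29, 10.21 and 10.45 in maxillary molars. Every incisor lay below every molar. Its log2 fold change was 0.38 (standard error 0.09, fold 1.30, limma adjusted p = 0.0272), against 0.26 within the first sample set (adjusted p = 0.14), where it was not called. With only incisors 2 and 3 the calls of *Sema6d* (0.40, limma adjusted p = 0.105), *Sema3c* (-0.55, 0.133), *Plxna2* (-0.24, 0.131) and *Plxnc1* (0.31, 0.135) were lost, while *Sema3a* (0.56, 0.0493), *Sema7a* (1.47, 0.0426) and *Sema4g* (-0.41, 0.0332) kept theirs.

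*Sema5b*, a class 5 semaphorin with thrombospondin repeats, did not overlap between the groups but was not called. It was at 7.39, 7.34, 7.28 and 7.26 in incisors and at 7.59 to 8.75 with a median of 7.72 in mandibular molars. Maxillary molars were at 7.71, 7.59, 7.56 and 7.35, and overlapped the incisors. All incisors lay below all mandibular molars, of which the highest, molar 7, stood far above the next at 7.90. The log2 fold change was 0.53 (standard error 0.18, limma adjusted p = 0.145). Without molar 7 it was called (adjusted p = 0.00821), as it was within the first sample set, which does not hold that sample, at 0.45 (limma adjusted p = 0.0371). In that set 1 of the 31 genes was called higher in mandibular molars 1 to 4 and 3 in incisors, where 0.948% and 0.832% of probe sets were. The 1 was *Sema5b* itself, and the 3 were *Nrp1*, *Sema3c* and *Sema4g*. *Sema7a*, *Sema3a*, *Sema6d* and *Plxnc1*, called higher in molars over all samples, were not called there.

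Of the other members not called, those with the smallest adjusted p here were *Sema6a* (log2 fold change 0.20, limma adjusted p = 0.143), *Plxnb1*, the receptor of *Sema4d* (0.21, 0.157), *Sema6b* (-0.25, 0.171), *Sema6c* (-0.17, 0.207) and *Sema4b* (0.17, 0.23). *Sema6a* was at 11.05 to 11.32 in incisors and 11.25 to 11.50 in mandibular molars. *Plxnb1* was at 9.27 to 9.60 and 9.54 to 9.84, *Sema6b* at 7.74 to 7.87 and 7.42 to 7.97, *Sema6c* at 8.33 to 8.53 and 8.16 to 8.48, and *Sema4b* at means of 8.88 and 9.05. All 5 overlapped between the groups. *Sema4d*, the best-known ligand of *Plxnb1*, had 2 probe sets that ran in opposite directions, at 0.19 for the one used and -0.13 for the other, and neither was called. The 2 probe sets of *Sema6b* held identical values. The 6 remaining genes, *Sema4a*, *Sema4c*, *Sema4f*, *Sema5a*, *Plxnb2* and *Plxnb3*, had log2 fold changes of -0.19 to 0.29 and were not called.

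**Figure D2:**
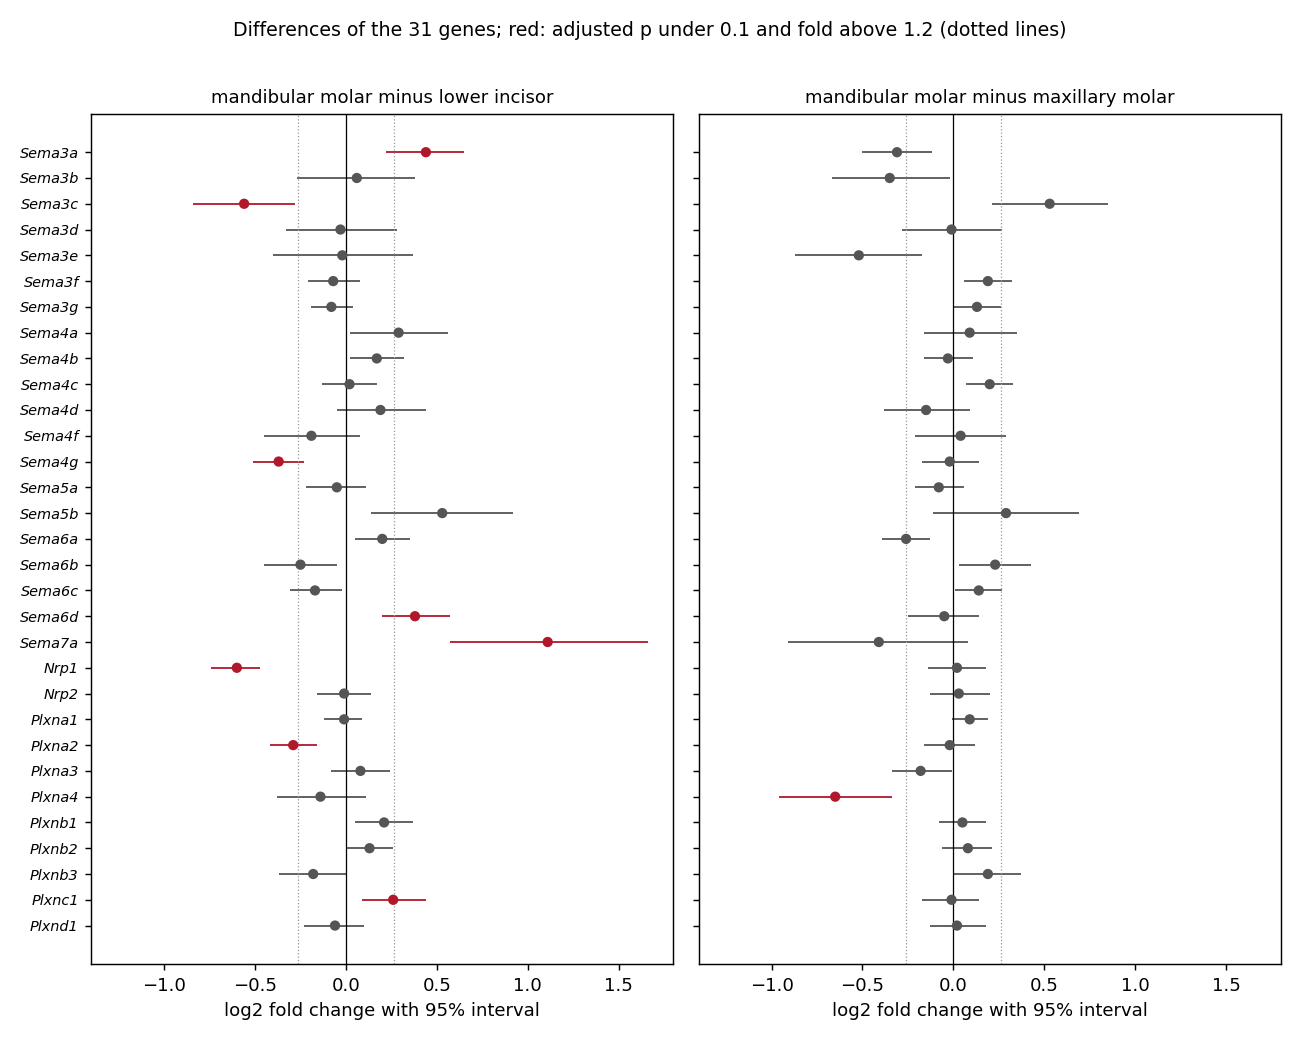
Log2 fold change (horizontal axis) of the 31 genes with its 95% interval, mandibular molars minus lower incisors on the left and minus maxillary molars on the right. Called genes are red and dotted lines mark fold 1.2. On the left 4 red points lie on each side of 0, and on the right *Plxna4* is the only one. Both panels use the same mandibular molar samples.

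Between the molars of both jaws *Plxna4* was the only gene called. Against maxillary molars 0 of 31 genes were called higher in mandibular molars and 1 in maxillary molars, where 1.01% and 1.18% of 29068 probe sets were called, or 1.4% and 1.59% with 1 probe set per gene. This share of 3.23% compares with 2.18% of all probe sets. For the direction with 0 calls by limma, 7 of the 31 genes were at an unadjusted p under 0.05, and 6 in the other direction, against 9.68% and 7.42% of all probe sets. The methods' t-test with the same adjustment also called 0 and 1. The median change was 0.02, as over all probe sets. Samples did not overlap for 2 genes higher in mandibular molars, *Sema4c* and *Sema6b*, and 3 higher in maxillary molars, *Plxna4*, *Sema6a* and *Sema3a*, against 2.08% and 2.02% of all probe sets. The mandibular samples are those of the comparison with incisors, so the results of the comparisons are not independent.

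*Plxna4*, the class A plexin through which *Sema3a* and *Sema6a* repel sensory and sympathetic axons, was at 9.66, 8.97, 9.02 and 8.59 in maxillary molars 1 to 4. In mandibular molars it was at 8.32 to 8.59 with a median of 8.42, and in lower incisors at 8.66, 8.15, 8.94 and 8.45. The mandibular molars were close together (SD 0.09, n = 8), the maxillary ones were not (SD 0.44, n = 4), and maxillary molar 4 lay only 0.001 above the highest mandibular molar. The log2 fold change was -0.65 (standard error 0.14, fold 1.57, limma adjusted p = 0.0462). Without maxillary molar 2 or 3 the adjusted p was 0.125 or 0.118. Without maxillary molar 1, the highest, the call held at -0.45 (adjusted p = 0.0648). Within the second sample set the change was -0.69, with an adjusted p of 0.184. The 12 neuron and axon markers averaged 6.63 to 6.79 in maxillary and 6.72 to 7.21 in mandibular molars, with 1 called higher in maxillary and 2 in mandibular molars. Muscle markers were called higher in mandibular molars for 10 of 12. Without mandibular molars 2 and 7, *Plxna4* was at -0.66 (limma adjusted p = 0.0754). Of the mandibular molars, number 2 was the highest in muscle markers, at 9.01, and number 7 the lowest, at 7.55. Those that remained, at 7.62 to 8.33, still lay above all maxillary molars, at 6.66 to 7.13. The part of muscle in *Plxna4* was therefore not tested. Of the other marker lists, 3 of 12 dental mesenchyme, 2 of 5 osteoblast and 1 of 12 cartilage markers were called higher in maxillary molars, against 1, 0 and 0 in mandibular molars.

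**Figure D3:**
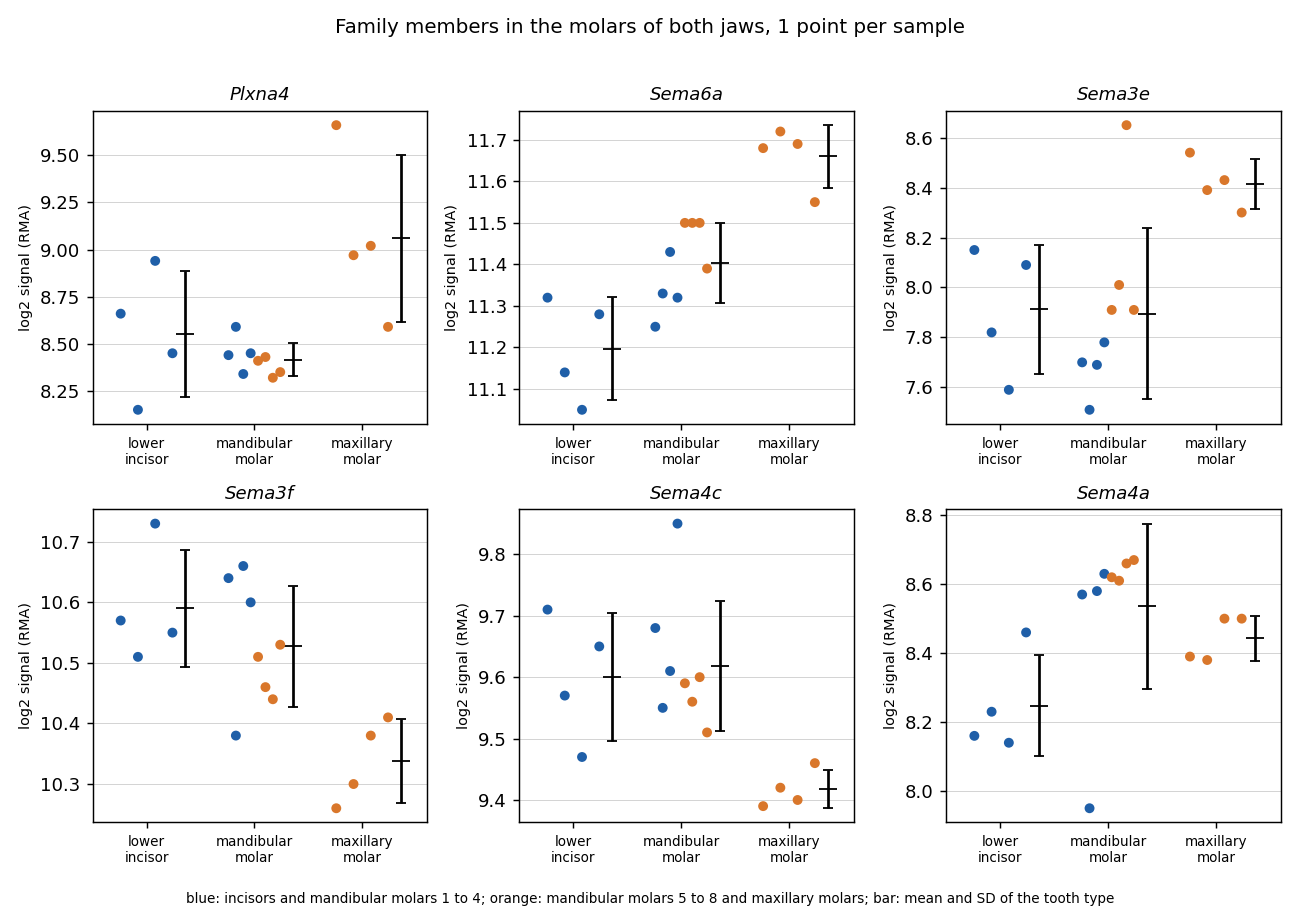
Log2 signal (RMA, vertical axis) of *Plxna4* and 5 genes that were not called, by tooth type, 1 point per sample, with mean and SD as a bar. Blue points are incisors and mandibular molars 1 to 4, orange points mandibular molars 5 to 8 and maxillary molars. Maxillary molars lie above the mandibular molars for *Plxna4* and *Sema6a* and below them for *Sema4c*.

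*Sema6a*, a membrane ligand of *Plxna2* and *Plxna4*, missed only the fold threshold. It was at 11.68, 11.72, 11.69 and 11.55 in maxillary molars and at 11.25 to 11.50 with a median of 11.41 in mandibular molars. The groups did not overlap. The log2 fold change was -0.26 (standard error 0.06, fold 1.19, limma adjusted p = 0.06), and -0.19 within the second sample set (adjusted p = 0.176). *Sema3a* was likewise apart between the jaws, with a lowest maxillary molar 0.03 above the highest mandibular one. Its log2 fold change of -0.31 (limma adjusted p = 0.114) was not called, and was -0.16 within the second sample set (adjusted p = 0.181). Over the series its signal ran from incisors through mandibular to maxillary molars with no overlap between neighbours. Only the first step was called, and not within the first sample set. Mandibular molars 5 to 8, at 10.57 to 10.68, also lay above 1 to 4, at 10.24 to 10.40, so the size of each step depended on which were compared.

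Other genes with small adjusted p between the jaws were ligands, as are 20 of the 31 genes of the family. *Sema3c* was at 7.78, 7.68, 7.33 and 7.33 in maxillary molars, with a log2 fold change of 0.53 (limma adjusted p = 0.117). *Sema3e*, the vessel repellent that needs no neuropilin, was at 8.54, 8.39, 8.43 and 8.30 in maxillary molars and at 7.51 to 8.65 in mandibular molars. All mandibular molars but number 7 lay below all maxillary ones, and the log2 fold change was -0.52 (adjusted p = 0.16). *Sema4c*, another ligand of *Plxnb2*, was at 9.39 to 9.46 in maxillary and 9.51 to 9.85 in mandibular molars, a change of 0.20 (adjusted p = 0.14). *Sema3f*, a repellent for axons bearing *Nrp2*, was at 10.26 to 10.41 and 10.38 to 10.66, a change of 0.19 (adjusted p = 0.164). None of these limma tests passed. The 95% intervals were 0.21 to 0.85 for *Sema3c*, -0.87 to -0.17 for *Sema3e*, 0.07 to 0.33 for *Sema4c* and 0.06 to 0.32 for *Sema3f*. *Nrp1*, which differed most clearly from the incisors, was at 0.02 here, with an interval of -0.14 to 0.18. The changes of *Sema3c*, *Sema3e*, *Sema4c* and *Sema3f* were 0.42, -0.30, 0.15 and 0.15 within the second sample set. Within the second sample set 0 of 31 genes were called in either direction by limma, where 0.54% and 0.743% of probe sets were called higher in mandibular and maxillary molars, and 5 and 4 genes were at an unadjusted p under 0.05, against 7.45% and 5.4% of probe sets.

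**Figure D4:**
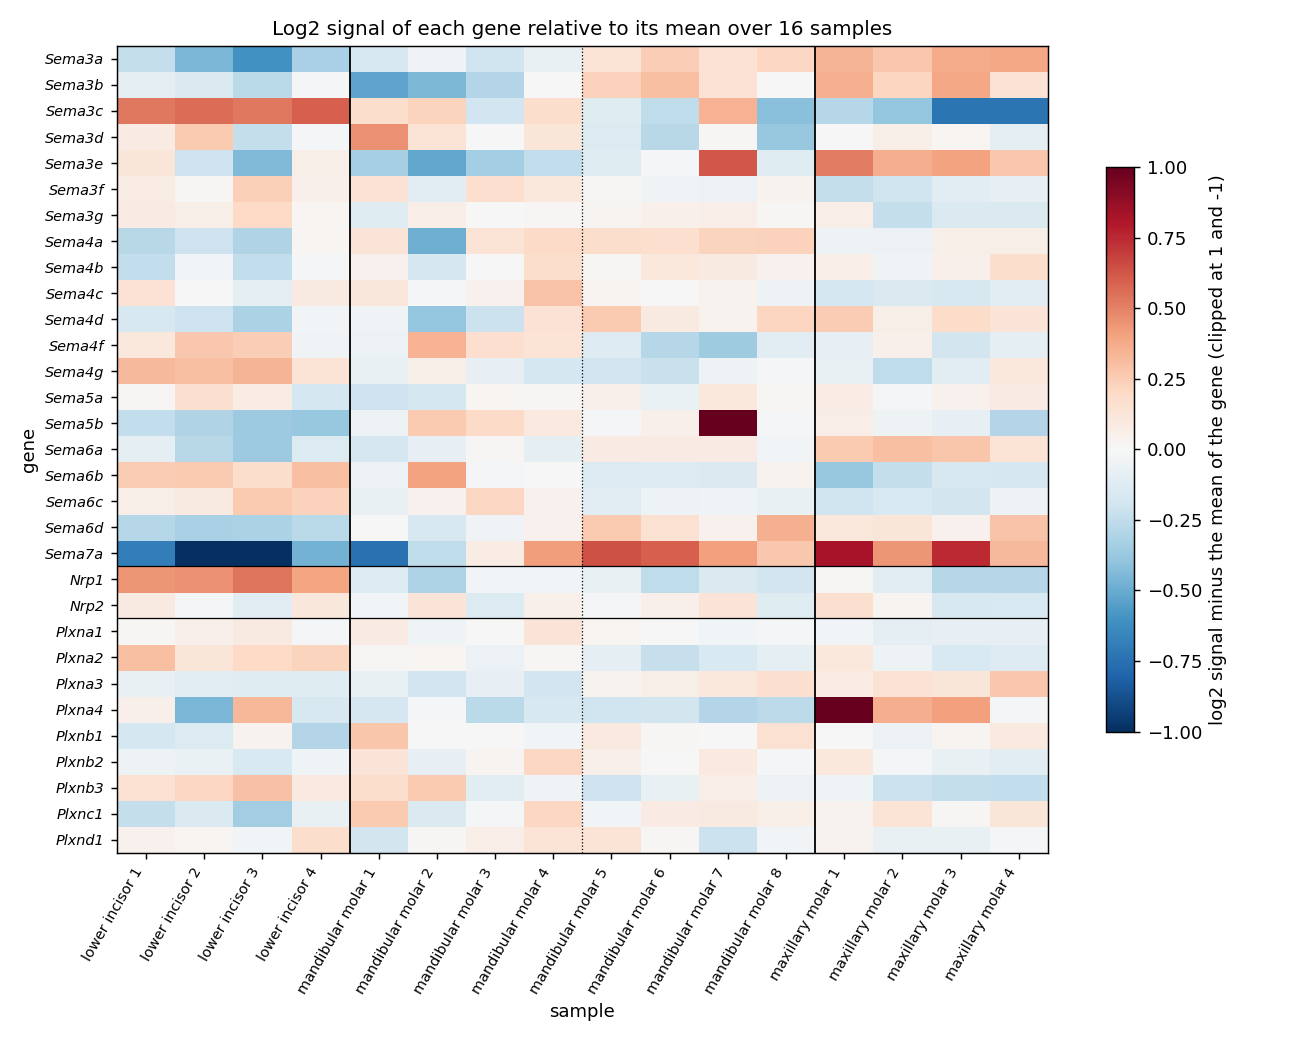
Log2 signal of the 31 genes (vertical) in the 16 samples (horizontal), as the difference from the mean of each gene over all samples, with colours clipped at 1 and -1. Solid lines part the tooth types, semaphorins, neuropilins and plexins, and the dotted line parts mandibular molars 1 to 4 from 5 to 8. *Sema7a* is lowest in incisors 2 and 3, and *Nrp1* and *Sema3c* are higher in the 4 incisors than in any molar.

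The mandibular molars were not uniform, and what parts them was not tested. Mandibular molars 1 to 4 and 5 to 8, of the same tooth, stage and strain, differed at 2 genes in each direction, where 4.49% of 28936 probe sets were higher in samples 1 to 4 and 7.29% in samples 5 to 8. In all 12.9% of the genes were called against 11.8% of all probe sets, so this split is not particular to the family. The 4 called genes are named because the count is small, and were chosen after their values were seen. *Sema3a* was at 10.28, 10.40, 10.24 and 10.36 in samples 1 to 4 and at 10.57, 10.68, 10.58 and 10.64 in samples 5 to 8, a log2 difference of -0.30 (limma adjusted p = 0.024). *Sema3b* was at 7.24, 7.32, 7.47 and 7.77 against 8.00, 8.07, 7.91 and 7.77, a difference of -0.49 (adjusted p = 0.0446), with samples 4 and 8 equal to the digits given. *Sema3d* (0.38, limma adjusted p = 0.0881) and *Sema4f* (0.36, 0.0562) were higher in samples 1 to 4. For *Sema3a* this stands beside 0.44 against incisors and -0.31 against maxillary molars, and for *Sema3b* beside 0.06 and -0.35, so these values depended on which mandibular molars were compared. The largest difference between samples 1 to 4 and 5 to 8 was that of *Sema7a*, at -0.60, which was not called (limma adjusted p = 0.129). *Sema3e* (-0.45, 0.124) and *Sema6d* (-0.24, 0.0981) were not called either. Of the 31 genes 16 were above and 15 below 0. For *Nrp1* (0.05) and *Sema4g* (0.05) the same comparison gave small values, with 95% intervals of -0.13 to 0.22 and -0.11 to 0.22. Over all 16 samples the range of a gene went up to 2.22 for *Sema7a*, 1.51 for *Plxna4*, 1.49 for *Sema5b* and 1.33 for *Sema3c*.

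Genes that work with the family were taken from a list of membrane partners and a list of cytoplasmic effectors. Of 21 membrane partners tested, 1 was called higher in mandibular molars and 1 in lower incisors, near the 2.75% and 2.18% of all probe sets, with a median change of 0.09 against -0.02 over all probe sets. *Itga1*, an integrin subunit that pairs with the beta 1 subunit used by *Sema7a*, was at a log2 signal of 7.82 in mandibular molars and 7.28 in incisors (log2 fold change 0.54, limma adjusted p = 0.0386). *Mst1r*, a receptor tyrosine kinase that can couple to class B plexins, was at 7.11 and 7.52 (-0.40, adjusted p = 0.00607). *Kdr* and *Flt1*, the VEGF receptors that share *Nrp1* as co-receptor, were at 0.26 and 0.23 and were not called, and neither was *Vegfa*, at -0.15.

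Of 36 effectors tested, 4 were called higher in mandibular molars and 1 in incisors, beside the same 2.75% and 2.18% of all probe sets, with a median change of 0.05 against -0.02. *Mical2*, of the family of actin-oxidizing enzymes that bind class A plexins, was at 8.50 in mandibular molars and 7.65 in incisors (log2 fold change 0.85, standard error 0.13, limma adjusted p = 0.00282). *Dpysl5*, a collapsin response mediator, was at 8.90 and 8.20 (0.69, adjusted p = 0.0266). *Fyn*, a kinase of the *Sema3a* response (0.32, 0.0226), and *Limk2*, which phosphorylates cofilin (0.31, 0.085), were also higher in molars. *Rnd3* was at 9.69 in mandibular molars and 10.09 in incisors (-0.41, limma adjusted p = 0.00222). Within the first sample set *Mical2* (0.64, limma adjusted p = 0.017), *Rnd3* (-0.45, 0.0272) and *Mst1r* (-0.40, 0.0652) kept their calls, and *Itga1* (0.35, 0.206), *Dpysl5* (0.47, 0.29), *Fyn* (0.28, 0.32) and *Limk2* (0.37, 0.286) did not. Between the jaws *Tyrobp*, the adaptor of the *Plxna1* complex in myeloid cells (0.34, limma adjusted p = 0.0936), was called higher in mandibular molars and *Nrcam*, an adhesion partner of *Nrp2* (-0.40, 0.0779), in maxillary molars. Each was 1 of 21 partners, where 1.01% and 1.18% of all probe sets were called, with a median change of 0.01 over the partners and 0.02 over all probe sets. Within the second sample set neither was called (0.25, limma adjusted p = 0.289, and -0.32, 0.263), while *Vegfc*, a lymphatic growth factor (-0.40, 0.087), and *Dpysl3*, another collapsin response mediator (0.33, 0.0456), were. *Vegfc* was 1 of 21 partners and *Dpysl3* 1 of 36 effectors, where 0.743% and 0.54% of probe sets were called in those directions. Over all samples no effector was called between the jaws by limma. At an unadjusted p under 0.05, 5 were higher in mandibular and 4 in maxillary molars, against 9.68% and 7.42% of all probe sets. Macrophage markers, 12 in number, were at a mean of 7.51 to 7.75 in mandibular and 7.38 to 7.67 in maxillary molars. By limma 0 were called, and at an unadjusted p under 0.05, 4 were higher in mandibular and 0 in maxillary molars. These 4 and 0 stand beside the same 9.68% and 7.42% of all probe sets.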

How the data were processed

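The authors extracted total RNA from pools of 4 tooth germs, hybridized 1 array per sample and deposited log2 signals. The submitters' processing notes name RMA and Affymetrix Expression Console 1.1, that is background correction, quantile normalization and median polish. The table held 35556 probe sets, 21789 of them with 1 symbol, 1621 with several and 12146 unnamed. All samples were kept. The study left out 1 incisor sample that its text does not identify.

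Linear models (lmFit and eBayes, limma 3.58.1, R 4.3.3) were fitted to the samples of each comparison alone, over probe sets that passed a log2 signal of 5 in 1 or more of them, with Benjamini-Hochberg adjustment over all. A gene was called at an adjusted p under 0.1 and a fold change above 1.2, the study's rule for pathways. The genes, the lists of partners, effectors and cell type markers, and the split of the mandibular molars into samples 1 to 4 and 5 to 8 were chosen with earlier results of these data known. Genes called in a comparison of tooth types or within a sample set are given with each incisor value. Their mandibular molars are given as range and median, and the maxillary molars for some of them. Also named are up to 8 genes that were not called and up to 4 genes called per list and direction. The p-values rest on the spread between these samples only, which may be technical, since nothing in the sources ties a pool to its animals. Precision is limited by the number of arrays. The medians of the samples were 6.80 to 6.99.

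The procedure was tested on simulated data in which 50 probe sets were changed per size. It recovered 24, 44, 43 and 48 at log2 changes of 0.4, 0.6, 0.8 and 1.1 between mandibular molars and incisors, with 14 of 29058 unchanged ones called. Between the jaws it recovered 25, 35, 44 and 49, with 17 of 28868 unchanged ones called. The simulated noise was independent between probe sets and held no sample sets or shared tissue, so these counts may not carry over to the data. Promoters and gene positions are those of RefSeq, GRCm38.p6. Alternatives were other filters, quantile normalization again, centring, the methods' t-test, trend with robust variances, array weights, all tooth types in 1 fit, mandibular molars within or across the sample sets, a replicate block, 1 probe set per gene, fold 2 and each sample left out. Fits without incisors 1 and 4 or without mandibular molars 2 and 7 were added after seeing the data.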

Additional observations from a re-analysis of the deposited data

Results flagged for a closer look

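Of 93 groups examined, 31 genes in 3 tooth types, 8 held a sample whose gap to its nearest neighbour was large for the range of its group, where chance gives about 1 group in 20. Among mandibular molars, sample 7 was the highest for *Sema5b* (8.75, next 7.90) and for *Sema3e* (8.65, next 8.01). Sample 2 was the lowest for *Sema4a*, a class 4 semaphorin (7.95, next 8.57), and the highest for *Sema6b*, a class 6 semaphorin (7.97, next 7.60). This sample also had the lowest mean of the dental epithelium markers, 8.89, and the highest of the muscle markers, 9.01, and their part in these values was not tested. Mandibular molar 1 was the lowest for *Sema3g* (6.94, next 7.06) and mandibular molar 3 the highest for *Sema6c* (8.48, next 8.31). Lower incisor 1 was the highest incisor for *Plxna3* (9.42, next 9.38), in a group that spans little. Maxillary molar 1 was the highest maxillary molar for *Plxnb3* (5.83, next 5.66).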

How the results depend on the processing

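No alternative turned the direction of the 9 called genes, each in the comparison that called it, or of *Sema5b* against incisors, the genes followed through every alternative. Among genes not called, 4 turned within the first sample set (*Plxna1*, *Plxna3*, *Sema3b* and *Sema3d*, all within 0.08 of 0 over all samples) and 3 between the jaws within the second (*Nrp1*, *Sema4f* and *Sema6d*, within 0.05). Between mandibular molars and incisors 4 genes were called for molars and 4 for incisors. The first count was 1 within the first sample set, where only *Sema5b* was called and the 4 genes called for molars lost their calls. It was 7 across the sets, 7 with array weights and 1 at fold 2. Of all probe sets 3468, 2640 and 83 were then called for molars, against 804 in the main fit. With 1 sample left out the first count was 1 to 5, with 2 without incisor 2 and 1 without incisor 3. In these last 2 fits 532 and 459 of all probe sets were called for molars. The second count was 0 at fold 2, 2 without incisors 1 and 4, and 3 to 5 with 1 sample left out. Of all probe sets 65 were called for incisors at fold 2 and 740 without incisors 1 and 4, against 637. *Plxna2* also lost its call when samples were centred on their medians (-0.25), and *Plxnc1* lost its own with no filter (limma adjusted p = 0.106), quantile normalization (0.138), centring (0.175), trend and robust variances (0.102) and the methods' t-test (0.116), and fell below the fold threshold across the sets (0.25). Between the jaws 0 genes were higher in mandibular molars, against 1 with all tooth types in 1 fit, with array weights or with 1 probe set per gene, 2 across the sets, and 0 to 1 with 1 sample left out (1 without mandibular molar 8). The count of 1 higher in maxillary molars became 0 within the second set and at fold 2. It was 2 with centring, array weights or without mandibular molars 2 and 7. It was 3 with 1 probe set per gene and 7 across the sets. Across the sets 2451 and 3082 of all probe sets were called in mandibular and maxillary molars, against 293 and 342 in the main fit. With 1 sample left out the count for maxillary molars was 0 to 4. It was 4 without mandibular molar 7, 3 without 6, and 2 without 5, 8 or maxillary molar 4. Without maxillary molar 2 or 3 it was 0. Without mandibular molar 7, 436 of all probe sets were called for maxillary molars, and 165 and 214 without maxillary molar 2 or 3. Between mandibular molars 1 to 4 and 5 to 8 the first count of 2 became 1 with centring or the methods' t-test and the second 1 with quantile normalization, and leaving out 1 sample gave 0 to 2 and 1 to 5 (the first 0 without molar 2, 5 or 6 and 1 without 1, 3, 7 or 8, the second 5 without molar 4, 3 without 7 and 1 without 5 or 6). In the fit without molar 4, 2560 and 2756 of all probe sets were called, against 1300 and 2108 with all samples. Within the sets, partners higher in mandibular molars went from 1 to 0 in both comparisons. Effectors went from 4 to 1 against incisors and 0 to 1 against maxillary molars. The causes were not tested.

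Pairing by replicate number was not adopted, since same-numbered samples had correlations of 0.09, 0.10, 0.26 and 0.67 between incisors and mandibular molars and 0.09, 0.39, 0.01 and 0.20 between the jaws, not all above 0.1. Both used mandibular molars 1 to 4, and a pairing of mandibular molars 5 to 8 with the maxillary molars was not examined. Numbers 3 and 4 in the first comparison and 2 in the second correlated best with their own number (0.17, -0.05 and 0.03 at most with another), and the other numbers did not. A replicate block with samples 1 to 4 of each group, which leaves mandibular molars 5 to 8 out, gave 1 gene higher in molars and 2 in incisors, and 2 higher in mandibular and 7 in maxillary molars. Between the jaws this block compared samples across the sample sets, which gave 2 and 7 without a block as well.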
